A study of Mus musculus with 6 samples.

Results

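The genes described here are 7 sensors of foreign or misplaced nucleic acid that belong to the interferon response: Ifih1, Ddx58, Zbp1, Aim2, Ifi204, Ifi203 and Ifi205. They were chosen by name, with earlier results of these data known. A gene was measured only where a transcript cluster of the array was annotated to it alone. This held for 5 of the 7, Ifih1, Ddx58, Zbp1, Aim2 and Ifi204, each with 1 cluster, out of 7676 genes with such a cluster in the series. All 5 passed the filter on dim genes and were among the 5373 genes tested. The clusters of Ifi203 and Ifi205 are shared with other genes, so these 2 genes have no value of their own.

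RNA came from Melan-a cells, a pigmented and immortalised mouse melanocyte line of C57BL/6 origin, transfected with an siRNA against Dicer (siDicer, 3 arrays) or with a control siRNA (siScr, 3 arrays). Each group had 1 array from cells at passage 47, 1 at passage 54 and 1 at passage 56, so a passage is represented by 1 siDicer and 1 siScr array. All cells, controls included, grew with 200 nM of the phorbol ester TPA and were transfected with 50 pmol of siRNA by lipid and magnetic particles; the titles place lysis at 48 h, whereas the treatment protocol gives a medium change at 6 h and lysis 24 h later. Dicer1 itself was not analysed here, the knockdown therefore has no check, and all arrays come from 1 cell line. Values are log2 signals on Affymetrix Clariom D arrays, with array medians of 4.63 to 4.68 and pairwise correlations of 0.993 to 0.997. Of 11 melanocyte markers, the 4 with a cluster (Tyrp1, Slc24a5, Pax3 and Mlph) averaged log2 10.76 to 11.14 on the siDicer arrays and 10.84 to 11.28 on the siScr arrays.

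Cells carry receptors that detect RNA or DNA where none should be. Ifih1 encodes MDA5 and Ddx58 encodes RIG-I, helicases that bind double-stranded RNA in the cytoplasm and signal through the adaptor Mavs to switch on type I interferon. Zbp1 binds nucleic acid in the left-handed Z form and can trigger cell death. Aim2 binds double-stranded DNA and assembles an inflammasome, and Ifi204 is a DNA-binding protein of the same PYHIN family. Many of these genes are themselves induced by interferon, through response elements read by interferon regulatory factors. Dicer cuts double-stranded RNA, and the comparison of siDicer with siScr asks whether lowering it changes the transcripts of the sensors.

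The promoters of Ifih1 and Ddx58 are shown because both hold an interferon-stimulated response element, together with that of Ifi211, the gene whose pattern was closest to that of Ifi204, for which no promoter sequence was used here. The sequences are from RefSeq on GRCm38.p6, run from 250 bases before to 50 bases after the annotated start, and read in the direction of the gene, which is the minus strand in all cases. They lie at chr2:62646206-62646505, chr4:40239776-40240075 and chr1:173912997-173913296. Capitals mark the response element, searched on both strands as GAAA, any 2 bases and GAAA again, so that a match on the other strand reads TTTC, any 2 bases and TTTC.
Ifih1: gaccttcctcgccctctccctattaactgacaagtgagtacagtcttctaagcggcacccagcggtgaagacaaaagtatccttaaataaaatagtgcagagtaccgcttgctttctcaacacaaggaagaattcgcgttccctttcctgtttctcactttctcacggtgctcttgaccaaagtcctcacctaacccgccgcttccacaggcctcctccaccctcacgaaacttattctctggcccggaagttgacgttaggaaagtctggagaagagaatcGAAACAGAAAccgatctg
Ddx58: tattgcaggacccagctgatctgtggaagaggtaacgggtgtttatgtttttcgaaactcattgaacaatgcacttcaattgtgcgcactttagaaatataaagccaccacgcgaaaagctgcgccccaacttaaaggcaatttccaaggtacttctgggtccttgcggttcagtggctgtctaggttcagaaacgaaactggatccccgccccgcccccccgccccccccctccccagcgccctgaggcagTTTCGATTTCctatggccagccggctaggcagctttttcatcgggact
Ifi211: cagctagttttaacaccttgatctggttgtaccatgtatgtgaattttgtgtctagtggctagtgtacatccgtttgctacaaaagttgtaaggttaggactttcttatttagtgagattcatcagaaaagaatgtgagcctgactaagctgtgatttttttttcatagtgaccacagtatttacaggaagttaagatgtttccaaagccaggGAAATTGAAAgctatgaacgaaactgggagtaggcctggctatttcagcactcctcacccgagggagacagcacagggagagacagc
The match begins 32 bases after the annotated start in Ifih1, 2 bases after it in Ddx58 and 37 bases before it in Ifi211. Of the 7 listed genes, 5 had a promoter in the table and 4 of these held the motif (Ddx58, Ifih1, Ifi203 and Ifi205), whereas the Aim2 window did not hold these letters. Among all 27025 RefSeq genes with a promoter the share was 3.99%, and among tested genes it was 3.72%. In the neighbouring PYHIN genes of chromosome 1, 7 of 9 promoters held it. The motif of the gamma-activated site, TTCNNNGAA, was in 0 of the 5 promoters and in 9.55% of all. A match is a run of letters and says nothing about binding.

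None of the 5 sensors passed the test between siDicer and siScr cells, and all 5 passed it between passages, with the highest signal at passage 54 under both siRNAs. The siDicer minus siScr differences lay between -0.07 and 0.06 on the log2 scale. By contrast, passage 54 exceeded passage 47 by log2 0.62 to 1.75, which is 1.53-fold to 3.36-fold. In bulk RNA, a change in the share of cells that express a gene and a change in the amount per cell cannot be told apart.

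The RNA sensor Ifih1 had log2 signals of 6.54, 7.87 and 6.98 in siDicer cells at passages 47, 54 and 56, against 6.81, 7.85 and 6.93 in siScr cells. Both arrays of passage 54 were above all others, and the siDicer and siScr ranges overlapped. Means of 7.13 ± 0.67 in siDicer cells and 7.20 ± 0.57 in siScr cells (SD, n = 3) gave a difference of -0.07 ± 0.37 (SE; limma, adjusted p = 0.986).

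For Ddx58, the other RNA helicase, the signals were 8.21, 8.93 and 8.39 in siDicer cells at the 3 passages, against 8.28, 8.80 and 8.27 in siScr cells. The arrays of passages 47 and 56 lay close together and those of passage 54 above them. Its means of 8.51 ± 0.37 in siDicer and 8.45 ± 0.30 in siScr (SD, n = 3) differed by 0.06 ± 0.20 (SE; limma, adjusted p = 0.969).

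Zbp1, the sensor of Z-form nucleic acid, was at 5.11, 5.89 and 5.04 in siDicer cells at passages 47, 54 and 56, against 5.02, 5.79 and 5.19 in siScr cells. Again the passage 54 arrays stood above the other 4, and which siRNA was higher varied with the passage. The means were 5.34 ± 0.47 in siDicer and 5.33 ± 0.40 in siScr (SD, n = 3; limma, adjusted p = 0.997). Its mean over all arrays was at the 49.6th percentile of genes, and how far this signal is above background was not measured.

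Aim2, the inflammasome sensor of DNA, was at 4.53, 5.25 and 5.10 in siDicer cells at the 3 passages, against 4.63, 5.26 and 4.94 in siScr cells. Passage 47 was lowest and passages 54 and 56 were closer to each other than in the other sensors. The means were 4.96 ± 0.38 in siDicer and 4.95 ± 0.32 in siScr (SD, n = 3; limma, adjusted p = 0.997). Aim2 was the dimmest of the sensors, at the 43.2nd percentile of genes, with the dim filter at log2 4.15. How far its signal is above background was not measured.

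Ifi204 had the widest range of the 5, with signals of 8.57, 10.40 and 9.44 in siDicer cells at passages 47, 54 and 56, against 8.75, 10.41 and 9.30 in siScr cells. The 3 passages were separated with no overlap, passage 54 highest and passage 47 lowest. Its means were 9.47 ± 0.92 in siDicer and 9.49 ± 0.85 in siScr (SD, n = 3; limma, adjusted p = 0.997). PYHIN genes resemble one another in sequence, and how far probes of one read another was not tested.

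**Figure D1:**
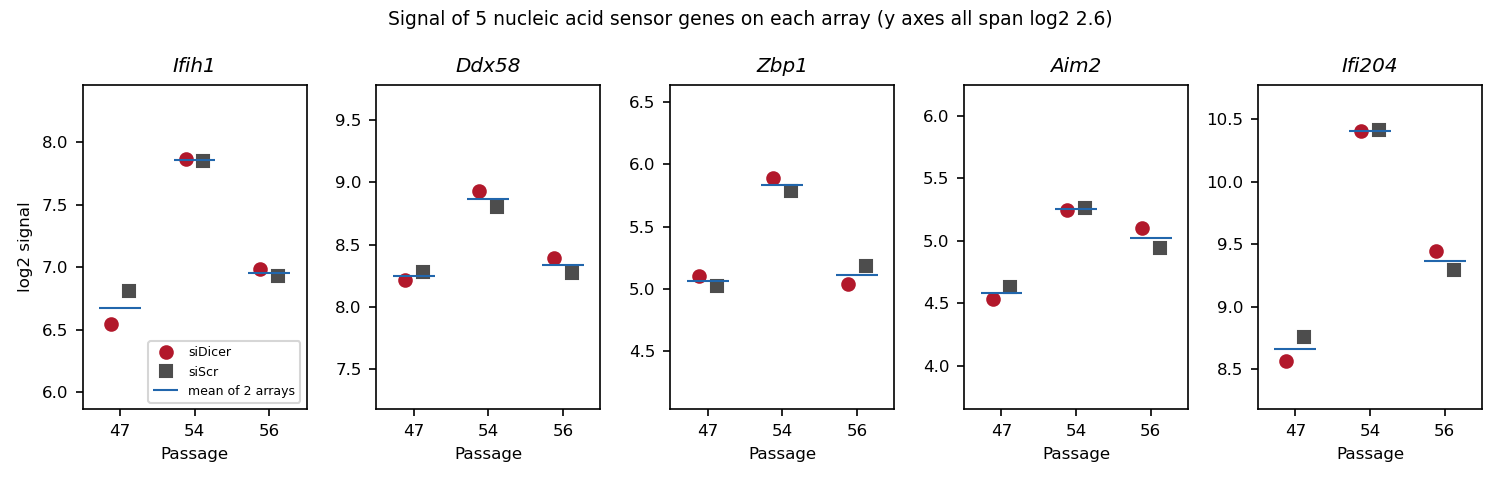
Log2 signal of Ifih1, Ddx58, Zbp1, Aim2 and Ifi204 (y axes) against passage (x axis) for siDicer (circles) and siScr (squares), 1 array each, with the mean of both arrays as a line. In all 5 panels both passage 54 arrays lie above the other 4, and the siDicer and siScr points of a passage lie close together.

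Across the whole table, 1 of 5373 genes (0.0186%) passed limma's test of siDicer against siScr, and 0 of the 5 sensors did. At an unadjusted p under 0.05 the count was also 0 of 5, where 8.51% of tested genes fell. With passage as a block, 1.71% of tested genes passed and again 0 of the 5 sensors, with adjusted p from 0.776 for Ddx58 to 0.965 for Zbp1 (limma), and 0 of 5 had an unadjusted p under 0.05 against 13.8% of genes. The groups did not overlap in 14.5% of tested genes and in 0 of the 5. At shares of this size 0 of 5 is a common outcome, so these counts say little about the sensors. The median difference over the sensors was log2 0.013, against -0.0090 over all tested genes.

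How large a difference these arrays leave room for depends on whether passage is in the fit. Without it the 95% interval of the siDicer minus siScr difference was -0.91 to 0.78 for Ifih1 and -1.20 to 1.17 for Ifi204. With passage as a block the intervals were -0.25 to 0.12 for Ifih1, -0.10 to 0.22 for Ddx58 and -0.15 to 0.17 for Zbp1. They were -0.15 to 0.17 for Aim2 and -0.21 to 0.17 for Ifi204. A difference of log2 0.5 in either direction lay outside the blocked interval in all 5. The widths of these intervals rest on variances that limma draws towards those of the other tested genes. Intervals from the array pairs of each gene alone were not computed and could be wider. Whether those pairs by themselves leave out log2 0.5 was therefore not tested. The blocked fit also takes the siRNA difference to be the same at every passage.

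Within a passage the comparison rests on 1 array per siRNA and has no test. For Ifih1 the siDicer minus siScr difference was -0.27, 0.02 and 0.05 at passages 47, 54 and 56. It was -0.07, 0.13 and 0.12 for Ddx58, and 0.08, 0.10 and -0.14 for Zbp1. Aim2 gave -0.10, -0.02 and 0.16, and Ifi204 gave -0.19, -0.01 and 0.15. The sign thus changed between passages in all 5, as it did in most tested genes (36.1% kept 1 sign throughout). Differences of at least log2 0.5 were found in 0 of the 5 sensors at any passage, and in 2.03%, 1.1% and 1.3% of tested genes at passages 47, 54 and 56. The siDicer effect differed between passages by 0.20 for Ddx58 to 0.34 for Ifi204 (highest minus lowest), a spread that cannot be tested with 1 pair of arrays per passage. Passage 47 gave the lowest value in Ifih1, Ddx58, Aim2 and Ifi204, and passage 56 in Zbp1.

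**Figure D2:**
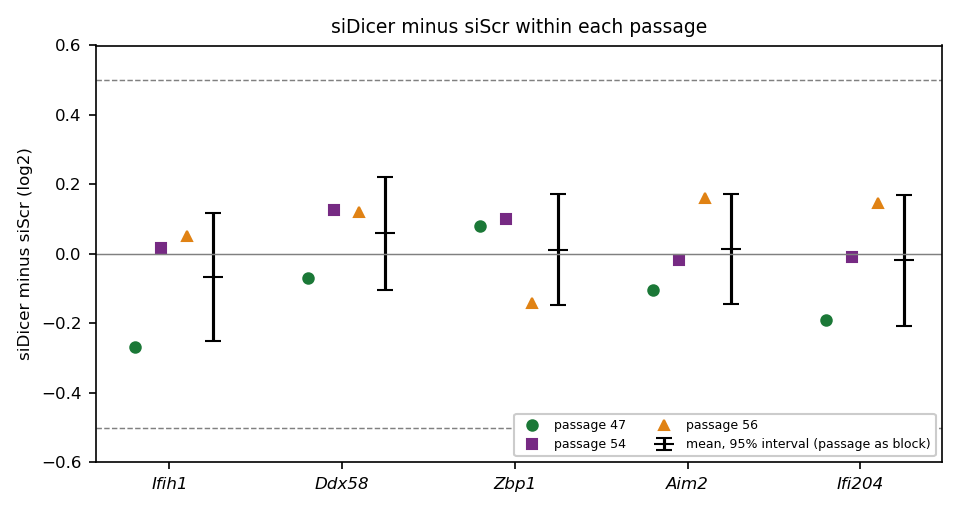
Difference in log2 signal, siDicer minus siScr (y axis), for the 5 sensor genes (x axis) at passages 47, 54 and 56, with the mean over passages and its 95% interval from the limma fit with passage as a block. Dashed lines mark log2 0.5 in either direction; all points lie between -0.27 and 0.16, and all 5 intervals include 0.

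The level between passages was tested with both siRNAs together, by limma's F test over the 3 passages in a fit that also holds the siRNA. It called 5 of the 5 sensors, against 1.86% of tested genes (100 of 5373, and 16.1% at an unadjusted p under 0.05). The sensors were chosen with earlier results of these data known, so this contrast is not an independent test. Adjusted p was 0.00253 for Ifi204, 0.0051 for Ifih1, 0.0112 for Zbp1, 0.0238 for Aim2 and 0.0274 for Ddx58 (limma). In all 5 the passage 54 mean was the highest, a pattern found with a call in 1.14% of tested genes, and both passage 54 arrays exceeded the 4 others in 5 of 5 sensors and in 15.4% of tested genes, while both lay below them in 0 sensors and 10.8% of genes. The count rests on every array of passages 47 and 54: it fell to 2 of 5, Ifih1 and Ifi204, without any 1 of those 4 arrays, and stayed at 5 without either array of passage 56. With 1 of those 4 arrays left out, the gap between the highest and lowest passage mean was 0.53 to 0.71 for Ddx58, 0.71 to 0.84 for Zbp1 and 0.59 to 0.76 for Aim2, against 0.62, 0.77 and 0.67 with all arrays. Without both passage 54 arrays it was 0 of 5, and without both passage 47 arrays it was 3 of 5 (Ifih1, Zbp1 and Ifi204). The p-values of this F test rest on the siRNA disagreement left within passages, in the gene itself and, as limma shares variance, in other genes. These p-values do not measure the spread between cultures of 1 passage.

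Set pair by pair, with adjustment over all genes and the 3 pairs of passages, passage 54 was higher than passage 47 in 5 of the 5 sensors, against 1.1% of tested genes (0.726% were lower). The differences were log2 1.75 ± 0.098 for Ifi204, 1.18 ± 0.096 for Ifih1 and 0.77 ± 0.084 for Zbp1 (SE; limma, adjusted p = 0.00228, 0.00459 and 0.0137). Those of Aim2 and Ddx58 were 0.67 ± 0.083 and 0.62 ± 0.085 (SE; limma, adjusted p = 0.0185 and 0.0267). Their median was 0.77, against 0.015 over all tested genes.

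Passage 56 was lower than passage 54 in 4 of the 5, against 0.893% of tested genes. The falls were -1.04 for Ifi204, -0.90 for Ifih1, -0.72 for Zbp1 and -0.53 for Ddx58 (limma, adjusted p from 0.00941 to 0.0414), while Aim2 differed by -0.24 (limma, adjusted p = 0.276). Between passages 56 and 47, Ifi204 was higher at passage 56, by log2 0.71 (limma, adjusted p = 0.027), as were 0.242% of tested genes. The other 4 did not pass, with 0.44 for Aim2, 0.28 for Ifih1, 0.09 for Ddx58 and 0.05 for Zbp1 (limma, adjusted p from 0.066 to 0.861). Separate passages in the order 54, 56, 47 with no overlap were seen in Ifih1, Aim2 and Ifi204, and in 2.88% of tested genes. Signal thus did not run with passage number, since the middle passage was the highest.

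Other measures moved with passage too. The mean of the 4 melanocyte markers was lower at passage 54, at 10.76 on the siDicer and 10.84 on the siScr array, than at passage 47 (11.14 and 11.28) or passage 56 (11.03 and 11.15). Slc24a5, a melanosomal exchanger, and Mlph, a melanosome transport adaptor, passed the F test over passages (limma, adjusted p = 0.0248 and 0.037). The 12 leukocyte markers with a cluster averaged 4.29 to 4.32 on the siDicer arrays and 4.31 to 4.38 on the siScr arrays, and 3 of them, Ptprc among them, were below the dim filter. Of these Cd53 was called over passages, with log2 4.27, 4.65 and 4.64 at passages 47, 54 and 56 (limma, adjusted p = 0.048). Among 4 fibroblast markers Col3a1, a fibrillar collagen, was highest at passage 54 (6.14, 6.60 and 6.20; limma, adjusted p = 0.037), and 0 of 2 tested keratinocyte markers passed. Whether these shifts have a part in the sensors' pattern was not tested. Passage and anything else that differed between the 3 cultures cannot be told apart.

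The closest neighbours in family and position are the other PYHIN genes, which lie in 1 cluster with Ifi204 and Aim2 on chromosome 1. Of 10 listed genes 6 had a cluster and 3 were tested, Ifi207, Ifi211 and Mndal. All 3 were called over passages, against 1.86% of tested genes (limma, adjusted p = 0.00184, 0.00632 and 0.0112). Ifi207 was at 6.73, 8.79 and 8.09 in siDicer cells at passages 47, 54 and 56, against 7.06, 8.83 and 8.13 in siScr cells. The difference between passages 54 and 47 was log2 1.92 for Ifi207, 1.58 for Ifi211 and 1.34 for Mndal. Between siDicer and siScr they differed by -0.14, -0.01 and 0.01, and 0 of 3 passed with or without the block, also at an unadjusted p under 0.05 (limma). Over all tested genes the unadjusted shares were 13.8% with the block and 8.51% without it. Ifi208, Ifi209 and Ifi213 were below the dim filter.

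Some interferon-stimulated genes were also highest at passage 54. Of 22 listed genes 14 were tested, and 5 were called over passages, against 1.86% of all tested genes. All 5 were highest at passage 54: Sp100, a nuclear body protein, Sp110 of the same family, and the guanylate-binding GTPases Gbp2, Gbp3 and Gbp7. Sp100 was at 6.06, 7.66 and 6.64 in siDicer cells at passages 47, 54 and 56, against 6.33, 7.55 and 6.51 in siScr cells. The difference between passages 54 and 47 was log2 1.41 for Sp100, 1.02 for Gbp7, 0.95 for Gbp3, 0.92 for Gbp2 and 0.55 for Sp110. The median of the 14 genes for that difference was 0.43. In siDicer against siScr 0 of the 14 passed (limma). At an unadjusted p under 0.05 there were 2, where 8.51% of tested genes fell. With the passage block there were 4 (Gbp7, Ube2l6, Tent5c and Samhd1, all lower in siDicer), where 13.8% of tested genes fell. With passage as a block Gbp7 fell by 0.58 (limma, adjusted p = 0.0262), with -0.75, -0.51 and -0.49 at passages 47, 54 and 56. The ubiquitin-conjugating enzyme Ube2l6 differed by -0.39 and Tent5c, an RNA-modifying polymerase, by -0.14, and neither passed with or without the block (limma, adjusted p from 0.0779 to 0.5).

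The interferon genes, adaptors and RNA-binding genes around the sensors gave 0 calls. Over all tested genes the shares were 0.0186% for siDicer and 1.86% over passages, so few calls would be found in lists of this size. At an unadjusted p under 0.05 (limma) the shares were 8.51% for siDicer, 13.8% for siDicer with the passage block and 16.1% over passages. The deposited values hold only identifiers of chromosomes 1 to 4, and genes of these kinds elsewhere were not measured. Of 18 listed type I interferon genes 10 were tested, and 0 passed in either comparison (limma; 0 at an unadjusted p under 0.05 for siDicer and 1 over passages). Ifnb1, the interferon beta gene, was below the dim filter, at 3.30, 3.41 and 3.32 in siDicer cells at passages 47, 54 and 56, against 3.35, 3.35 and 3.34 in siScr cells. In the tested set Ifna1, Ifnz and Ifna6 had the smallest p in siDicer against siScr, with differences of -0.12, 0.15 and 0.10. Interferon alpha genes are near-identical in sequence, so their signals may not be separate.

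Of the adaptors and kinases that act below the sensors 8 were tested and 0 passed for siDicer or over passages (limma; 1 and 2 at an unadjusted p under 0.05, and 1 for siDicer with the passage block). Mavs, the adaptor of RIG-I and MDA5, was at 8.16, 7.99 and 7.98 in siDicer cells at passages 47, 54 and 56, against 7.87, 7.78 and 8.03 in siScr cells. The ubiquitin ligase Traf6 differed by 0.16 between siDicer and siScr. The cluster annotated to Cflar alone, which is in all these counts, has an identifier of chromosome 3, whereas RefSeq places Cflar on chromosome 1, so its signal (siDicer minus siScr -0.34; limma, adjusted p = 0.517) is not given as that of the gene. The median difference between passages 54 and 47 over these 8 genes was -0.12, and 2 of the 8 had a positive value.

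Genes that bind or process double-stranded RNA gave 0 calls of 8 tested in both comparisons (limma; 0 for siDicer and 2 over passages at an unadjusted p under 0.05, and 1, Samhd1, for siDicer with passage as a block). Samhd1, a dNTPase, which is also in the interferon-stimulated list, differed by -0.25 between siDicer and siScr (limma with the block, adjusted p = 0.151) and by 0.46 between passages 54 and 47 (limma, adjusted p over passages = 0.058). Prkra, a protein partner of Dicer, differed by -0.07 and the RNA-binding protein Stau1 by 0.05 between siDicer and siScr.

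**Figure D3:**
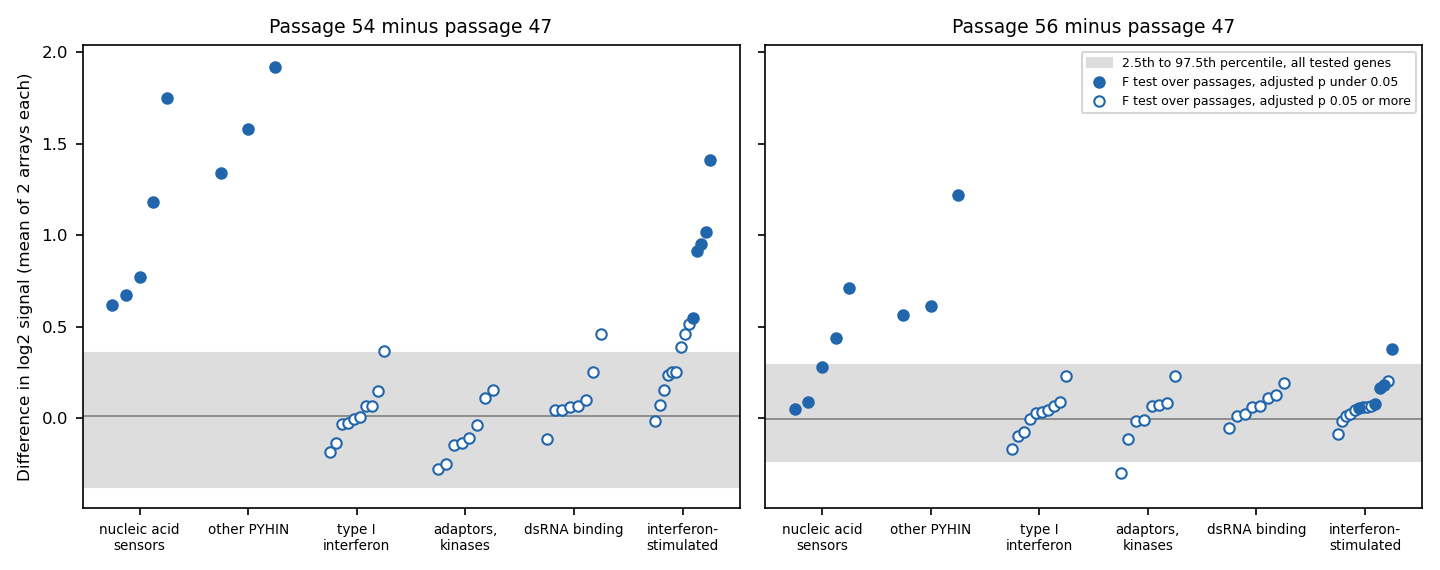
Difference in log2 signal between passages (y axes; passage 54 minus 47 on the left, 56 minus 47 on the right, means of 2 arrays each) for the sensors and 5 related gene lists (x axes). Filled points passed the F test over passages, and the grey band spans the central 95% of all tested genes; on the left the 5 sensors lie between 0.62 and 1.75.

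The genes whose 6 values were most like those of each sensor were found by the root mean square difference of centred log2 signals. The search covered 3531 tested protein-coding genes. The deposited values hold only identifiers of chromosomes 1 to 4, so genes elsewhere could not be found. For Ifih1 the closest were Sp100, Gbp3 and Gbp2, with differences of 0.099, 0.12 and 0.13. For Ifi204 they were Ifi211 (0.084), Sp100 (0.16) and Mndal (0.18), so interferon-stimulated or PYHIN genes filled all 3 places for both. Ddx58 had Rnd3, Sp110 and the phospholipase Pla2g4a (0.052, 0.054 and 0.057). Zbp1 had the sphingomyelin synthase Sgms2, the monocarboxylate transporter family member Slc16a4, and Dusp27 (0.098, 0.10 and 0.11), none of them in a list used here. Aim2 had the condensin subunit Smc4, Nmi, and the channel Mcoln2 (0.12, 0.12 and 0.13). Among the sensors themselves Ddx58 and Zbp1 were closest, at 0.12, and Ddx58 and Ifi204 farthest apart, at 0.47. The measure depends on the size of the shift as well as its shape, and 6 arrays from 3 cultures stand behind it.

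**Figure D4:**
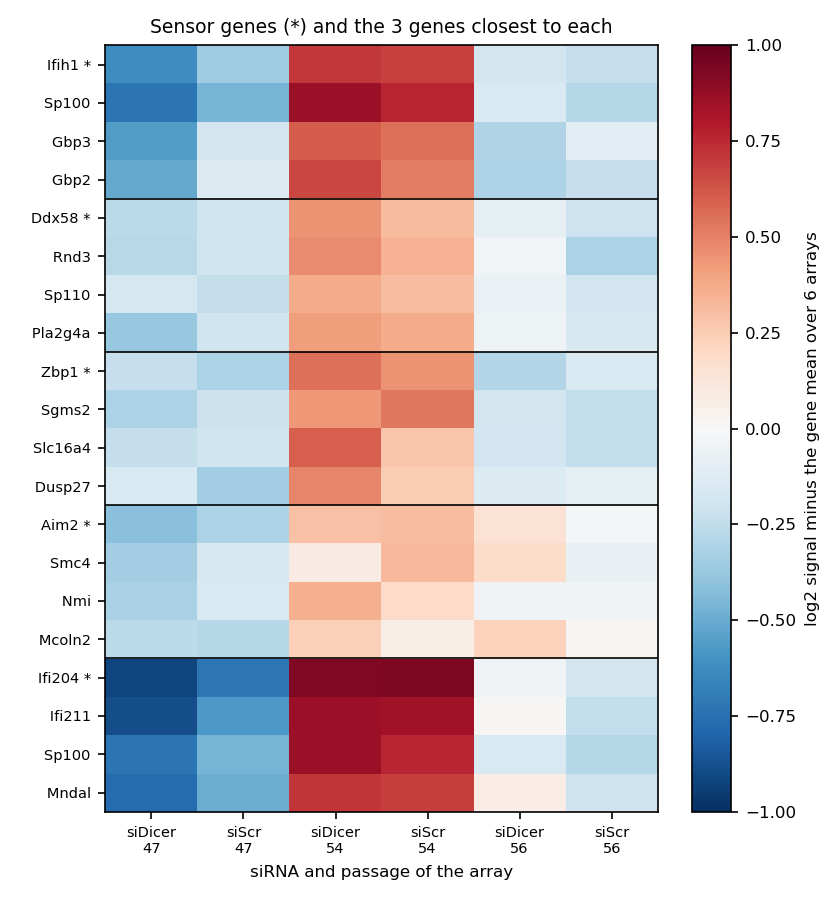
Log2 signal minus the mean of each gene over the 6 arrays (colour), for the 5 sensors (asterisks) and the 3 protein-coding genes closest to each (rows), by siRNA and passage (columns). Both passage 54 columns are above the gene mean in every row, and the siDicer and siScr columns of a passage are mostly alike in colour. The neighbour rows were chosen for likeness to a sensor in these same values, so their likeness to it follows from that choice.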

How the data were processed

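The deposited table holds log2 signals for 16383 transcript clusters (identifiers of chromosomes 1 to 4) on 6 arrays, already on a common scale made by the authors. The submitters' processing notes name Affymetrix Expression Console; how it summarised and normalised, and the build, are not stated in the sources read, and scale was read from the values (1.70 to 13.70), with centring unknown. Clusters with 1 gene (7730) were named through the platform annotation and RefSeq (430 symbols updated); 255 with several genes and 8398 with none were left unnamed. The brightest cluster stood for a gene, and genes with a mean below log2 4.15 (the 30th percentile) were dropped. The siRNA comparison used limma 3.58.1 under R 4.3.3 (eBayes with trend, two-sided, Benjamini-Hochberg over 5373 genes, threshold 0.05), and passages with an F test beside the siRNA; the pairwise passage tests were added later, with the values seen. Both were tested on simulated data. The simulation for the siRNA test held no shifts between passages, unlike these data, so it does not show the power of that test here. The labels give each replicate number 1 passage in both groups, which pairs the samples; deviations from the group means correlated at 0.42, 0.62 and 0.072 for passages 47, 54 and 56. An exact permutation test of 3 against 3 arrays cannot go below 0.1. The members, lists and tests were chosen with earlier results of these data known. Each related list named up to 3 genes by smallest p for siDicer, those passing with or without the block, and the 3 genes closest to each sensor; marker genes and Ifnb1 were named after their values were seen. The number of arrays limits the precision, and all cultures are of 1 line. Without the block, p-values of the siRNA test rest on the spread between the arrays of a group. In the blocked fit and the passage tests they rest on how far siDicer minus siScr varies between passages. In all these fits eBayes draws the variance of each gene towards that of the other tested genes, so no p-value rests on 1 gene's arrays alone. No passage has a second array of the same siRNA, so the spread between cultures of 1 passage was not measured. Alternatives were no dim filter, quantile normalisation, median centring, array weights, no trend, the dimmest cluster, each array left out, the passage block and, added after seeing the data, each passage left out.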

Additional observations from a re-analysis of the deposited data

How the results depend on the processing

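The count of 0 sensors called for siDicer against siScr held under all 16 alternatives, and the passage block changed no call on them. The block moved the count over all genes to 92 and that of the related lists to 1 (Gbp7). Apart from the block these fits do not hold passage, so the sensors' shifts between passages stay in their error. Few genes of the whole table passed in them, so a count of 0 sensors says little there. Array weights gave 14 genes over all, leaving out 1 array gave 0 to 2, and 0 passed without passage 47, 54 or 56. The median sensor difference was 0.25 with array weights and ran from -0.26 to 0.24 with 1 array left out. The signs of the siDicer differences were not stable: with 1 array left out they ran from -0.43 to 0.26 for Ifih1, -0.15 to 0.23 for Ddx58, -0.26 to 0.24 for Zbp1, -0.14 to 0.23 for Aim2 and -0.48 to 0.44 for Ifi204. Array weights gave 0.28 for Ifih1 and 0.41 for Ifi204, and median centring 0.0079 for Ifi204. Without passage 47 the differences were 0.034 for Ifih1, -0.021 for Zbp1 and 0.068 for Ifi204, without passage 54 -0.031 for Zbp1, and without passage 56 -0.060 for Aim2. The fits with 1 array left out and the fit with array weights do not hold passage, so passages then count unequally in the 2 groups. Without the siDicer array of passage 54 all sensor differences were negative, from -0.48 to -0.13. Without the siScr array of passage 54 all were positive, from 0.17 to 0.44. Leaving out a whole passage keeps the groups matched. The cause of the sign changes was not tested.

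Over passages, the count of 5 sensors held with no dim filter, quantile normalisation, median centring, array weights, no trend and the dimmest cluster, and passage 54 stayed highest in all 5 under both other scalings. It ran from 2 to 5 with 1 array left out, and leaving out a whole passage gave 3 (passage 47), 0 (54) or 5 (56). Over all genes the count was 58 with no dim filter, 165 with array weights, 14 to 311 with 1 array left out, and 32, 5 and 393 without passages 47, 54 and 56. Among the related lists it was 8, with 4 to 10 when 1 array was left out and 1 without passage 54. Leaving out an array or a passage also leaves fewer arrays for the fit. Signal over background could not be measured from these values.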

Other observations

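The transcript cluster annotated to Ifi203 together with Gm16340 and LOC100862473 had log2 signals of 6.16, 7.79 and 7.14 in siDicer cells at passages 47, 54 and 56, against 6.33, 7.60 and 6.90 in siScr cells. Passage 54 was highest and passage 47 lowest under both siRNAs. The cluster annotated to Ifi205 together with Ifi202b and LOC100044068 was at 3.91, 4.84 and 4.31 in siDicer cells, against 3.93, 4.78 and 4.09 in siScr cells, in the same order of passages. Neither was tested, since which of the named genes the signal comes from is not known.

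The interferon-stimulated response element was in the promoters of 9 of 76 genes (11.8%) called over passages once the sensors were left out, beside 3.72% of tested genes; several are PYHIN and guanylate-binding protein genes named above, and this share was not tested.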
